A study of Mus musculus with 9 samples.

Results

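Genes of fatty acid oxidation and targets of the peroxisome proliferator-activated receptors (PPARs) were followed in podocytes of diabetic and normal mice. The set was a list of 36 gene symbols, and a gene was taken where a probe set of the array platform carried that symbol alone. Of the 36, 34 were measured among 18193 genes in all. Cyp4a10 was on a probe set shared with Cyp4a31 and was left out, and Ucp2 was not analysed here. Podocytes are the epithelial cells that cover the glomerular capillaries and hold back protein from the urine. OVE26 mice, labelled with the genotype OVE-GFP and as diabetic, carry a calmodulin transgene expressed in, and damaging to, the insulin-making cells of the pancreas, and are a model of early-onset type 1 diabetes. The other group was labelled wild type and normal. Both groups were on the FVB background and 3 to 4 months old. Per the series' design text, mice with green fluorescent podocytes were crossed to OVE26 mice and the fluorescent cells were sorted from trypsin-digested glomeruli. The sources used here do not give the promoter of the fluorescent transgene, whether the FVB mice carried it, or the sex of the mice. There were 5 OVE26 and 4 FVB arrays, 1 for each mouse.

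Fatty acids enter cells through proteins such as CD36, are carried by fatty acid binding proteins, and reach the mitochondrial matrix through the carnitine shuttle. There the beta-oxidation spiral shortens them, passing electrons through the electron transfer flavoproteins to the respiratory chain. PPARs are nuclear receptors that bind fatty acids, pair with retinoid X receptors and raise transcription of many genes of this pathway, and PGC-1alpha, made from Ppargc1a, is their coactivator. In the kidney this pathway is richest in the proximal tubule and thick limb, which burn fatty acids for transport, while podocytes are held to rely on glycolysis as well.

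The sorts carried the markers of podocytes and also signal of other cells. All 11 podocyte markers measured were above the 25th percentile of every array, a reference for dim signal (3.31 on the log2 scale on average), and so were 16 of 18 proximal tubule markers. Summed intensity of the proximal tubule markers, on the linear scale, was 1864 in OVE26 2, which stood apart, 9416 to 11849 in the other OVE26 arrays and 6812 to 14880 in FVB arrays. Kap, 1 of these markers, read 6.47 to 9.13 in OVE26 arrays and 11.89, 5.82, 11.87 and 12.36 in FVB 1 to 4. It is a large part of the sums of FVB 1, 3 and 4, so the sums are not alike in make-up. By mean centred log2 value of the list, OVE26 1, 3, 4 and 5 were at 0.25 to 0.72. The FVB arrays were at -0.23 to 0.49. OVE26 2 also had the highest sum of 18 markers of the thick limb, distal tubule and collecting duct, 13109 against 2226 to 9047 in the other 8 arrays. These distal markers were above 0 in the difference between groups for 18 of 18 genes, with a median of 1.38. Of them, 3 were called higher by limma and 8 lay above FVB without overlap, against 0.473% and 3.64% of all genes. All 11 podocyte markers had differences below 0, with 0 called and a median of -0.21, and summed to 31624 to 40728 against 40436 to 43601 in FVB arrays. For 3 of the 11, every OVE26 array was below every FVB array, against 2.62% of all genes. Macrophage markers had differences above 0 for 12 of 14 genes, with 0 called, 4 above FVB without overlap (3.64% of all genes) and a median of 0.49. Fits with a marker score (the mean centred log2 value of a list) as a covariate are given with the genes they move. The distal score was 0.25 to 1.70 in OVE26 and -1.47 to -0.10 in FVB arrays, without overlap, so the fit with it separates score and group poorly, and it called 0 genes in either direction (1643 at an unadjusted p under 0.05). The macrophage score was -0.28 to 0.70 and -0.48 to -0.19, with OVE26 2 as the only OVE26 array within the FVB range, and the fit with it called 0 genes higher and 1 lower (2673 at an unadjusted p under 0.05). Beyond these fits the part of the shifts in the results was not tested. Xist, the transcript that silences an X chromosome in female cells, lay between 10.99 and 11.57 in OVE26 2, OVE26 3, OVE26 5 and FVB 2 and between 3.01 and 4.54 in the other arrays, so 3 of 5 OVE26 and 1 of 4 FVB arrays had high Xist. Uty, a Y-linked gene, read 2.03 to 2.94 in the arrays with high Xist and 6.42 to 7.24 in the others. By these genes the groups were not balanced in sex. In sorted bulk RNA, a gene read from fewer cells of a type and less RNA per cell cannot be told apart.

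PPARs bind with their partner to a direct repeat of the hexamer AGGTCA with 1 base between the copies, so the promoters of the measured members were searched on both strands for AGGTCA, any base and AGGTCA again. RefSeq promoters of 300 bases (build GRCm38.p6, from 250 bases before to 50 after the start) were at hand for 27 members, with 29 starts. The members with no entry were Acaa2, Angptl4, Crat, Cyp4a14, Decr1, Fabp4 and Lpl. The exact repeat was in 0 of the 29 promoters and in 0.0396% of 32851 promoters. With up to 2 mismatches outside the spacer it was in 5 of 29, against 3.86% of all promoters, a description of these letters only. The hexamer alone, which such matches can contain, was in 8 of 29 against 16.3% of all. The 5 matches are shown because they are the only close copies of the receptor's element in these windows, with the hexamers in capitals and the spacer in lower case, read on the strand that matched:
Plin2: AGGTCAgGGGTCC
Slc25a20: AGGTGAaAGGTCG
Echs1: AGGTCAcGGGTCC
Etfa: AGGGCAaAGGTAA
Cd36: AAGTCAgAGGCCA
Of these genes Plin2 had the smallest p between the groups. The promoters below are of Plin2 (chr4:86670010-86670309, minus strand) and Slc25a20 (chr9:108661886-108662185, plus strand), with the match in capitals as it reads on the gene's strand, and of Cpt1a (chr19:3323051-3323350, plus strand), the entry step of the pathway, with its single hexamer in capitals. Counted from 1 at the 5′ end of each window, the capitals span bases 26 to 38 in Plin2, 257 to 269 in Slc25a20 and 157 to 162 in Cpt1a.
Plin2: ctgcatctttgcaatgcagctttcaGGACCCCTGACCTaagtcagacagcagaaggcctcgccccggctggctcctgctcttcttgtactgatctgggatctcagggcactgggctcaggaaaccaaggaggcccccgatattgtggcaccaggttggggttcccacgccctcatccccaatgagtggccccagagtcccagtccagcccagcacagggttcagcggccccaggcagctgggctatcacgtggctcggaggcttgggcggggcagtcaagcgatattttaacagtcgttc
Slc25a20: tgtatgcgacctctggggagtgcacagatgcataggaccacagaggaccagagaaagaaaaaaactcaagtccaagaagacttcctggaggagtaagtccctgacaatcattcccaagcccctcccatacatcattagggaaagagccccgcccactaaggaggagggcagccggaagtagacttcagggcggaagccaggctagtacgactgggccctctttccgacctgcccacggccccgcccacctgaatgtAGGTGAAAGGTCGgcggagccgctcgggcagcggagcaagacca
Cpt1a: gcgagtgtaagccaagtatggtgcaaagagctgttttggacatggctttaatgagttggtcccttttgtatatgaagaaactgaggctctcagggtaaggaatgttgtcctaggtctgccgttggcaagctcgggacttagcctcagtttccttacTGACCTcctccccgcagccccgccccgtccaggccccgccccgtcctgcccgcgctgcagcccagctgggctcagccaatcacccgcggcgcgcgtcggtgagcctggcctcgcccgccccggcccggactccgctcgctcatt

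Across the list, most members read somewhat higher in podocytes of OVE26 mice, and a single gene passed the test. Of 34 members, 1 rose (Angptl4) and 0 fell at an adjusted p under 0.05 by limma, where 0.473% of all genes were called higher and 0.132% lower. At an unadjusted p under 0.05, 16 members were higher and 1 lower, against 9.03% and 6.07% of all genes. Every OVE26 array lay above every FVB array for 8 members (Angptl4, Acaa2, Cpt1a, Plin2, Acot1, Acadl, Crat and Hadhb) and below for 0, against 3.64% and 2.62% of all genes. The difference, OVE26 minus FVB in mean log2 intensity, was above 0 for 32 of 34 members, against 52.6% of all genes, and for 27 with arrays centred on their medians or 24 with arrays centred on ribosomal protein genes. Those centrings moved the median of all genes from 0.01 to -0.09 and -0.12. The members' median difference was 0.29 as deposited, and 0.20 and 0.17 under these centrings, which shift all genes of an array alike. With the macrophage score as a covariate 27 members were above 0, and their median less that of all genes was 0.17, against 0.28 without it. Members share arrays and were chosen with earlier results of these data known, so these counts carry no test. By array, the lowest of 9 values fell on FVB 1 for 14 members and the highest fell on an OVE26 array for 31.

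**Figure D1:**
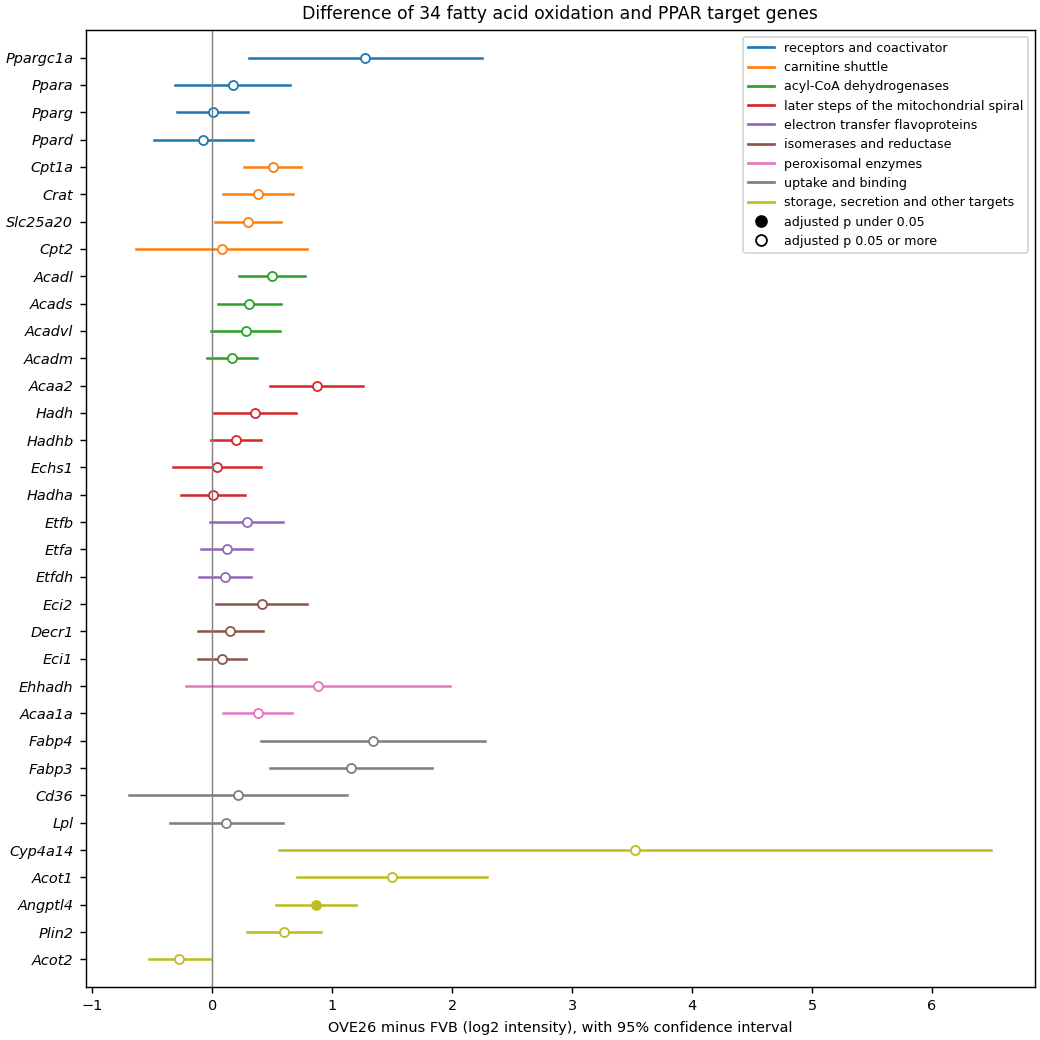
Difference between groups (OVE26 minus FVB, log2 intensity) of each of 34 members by role, with its 95% confidence interval from limma; filled points passed an adjusted p of 0.05. Angptl4 is the filled point at 0.86, Acot2 is the lowest at -0.28, and Cyp4a14 has the widest interval, from 0.56 to 6.50.

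Of the 3 receptors 0 passed the test, and the coactivator Ppargc1a varied widely among the normal mice. Ppara, the receptor that drives fatty acid oxidation in liver and kidney, read 6.98, 6.44, 5.98, 6.43 and 6.43 in OVE26 1 to 5 and 6.15, 6.78, 6.24 and 5.95 in FVB 1 to 4. The groups overlapped, with OVE26 1 highest and FVB 4 lowest. Its difference was 0.17 with a 95% interval of -0.31 to 0.65 (adjusted p = 0.783), and its other 2 probe sets differed by 0.61 and 0.24. Ppard, the broadly expressed receptor, was at 4.76, 5.67, 5.68, 5.57 and 5.57 in OVE26 1 to 5 and 5.57, 5.57, 5.51 and 5.45 in FVB 1 to 4. OVE26 1 was low and the other arrays lay close together. OVE26 4, OVE26 5, FVB 1 and FVB 2 held the identical value 5.57347, so the closeness may not reflect the mice, and its cause was not tested. The difference was -0.07 (-0.48 to 0.34, adjusted p = 0.909). Pparg, the receptor of fat cells and the target of glitazones, gave 5.42, 5.16, 5.49, 5.44 and 5.63 in OVE26 1 to 5 and 5.56, 5.57, 5.44 and 5.12 in FVB 1 to 4, with overlapping groups and a difference of 0.00 (-0.29 to 0.30, adjusted p = 0.996).

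Ppargc1a read 8.34, 8.44, 8.22, 8.82 and 7.90 in OVE26 1 to 5 and 6.35, 8.34, 5.99 and 7.60 in FVB 1 to 4. OVE26 arrays were all high, FVB 1 and FVB 3 were low, and FVB 2 was as high as the diabetic mice. The mean was 8.34 ± 0.34 (SD, n = 5) against 7.07 ± 1.10 (SD, n = 4), a difference of 1.28 (SE 0.44, adjusted p = 0.205), and all 5 probe sets ran the same way. Without FVB 2 it was 1.70 (adjusted p = 0.0465). Of 9 fits with 1 array left out only this one passed, and the highest adjusted p was 0.444. The fit drops the only FVB array with high Xist, and it called 285 of all genes higher, against 86 with every array. Beside Ppargc1a, the summed distal markers were 5791, 13109, 7600, 6730 and 6553 in OVE26 1 to 5 and 3745, 9047, 2226 and 4310 in FVB 1 to 4. The order of the 4 FVB arrays was the same as for Ppargc1a. That of the 5 OVE26 arrays was not, with OVE26 2 highest in these sums and OVE26 4 highest in Ppargc1a. The difference was 0.19 (adjusted p = 0.940) given the distal score, a score that did not overlap between groups, and 1.04 (adjusted p = 0.516) with the macrophage score.

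Of 4 carnitine shuttle genes 0 passed, and the difference was above 0 for all 4, as for 52.6% of all genes. Cpt1a, the outer-membrane enzyme that admits long-chain fatty acids and sets the pace of oxidation, read 9.68, 9.74, 9.43, 9.41 and 9.46 in OVE26 1 to 5 and 8.95, 9.08, 9.07 and 9.04 in FVB 1 to 4. All OVE26 arrays were above all FVB arrays, and OVE26 1 and OVE26 2 were highest. The difference was 0.50 or 1.42-fold (SE 0.11, adjusted p = 0.0690), which missed the threshold. The other probe sets gave 0.39 and 0.43. Crat, which swaps acetyl groups between carnitine and CoA, was at 7.32, 7.27, 7.38, 7.32 and 7.37 in OVE26 1 to 5 and 6.68, 6.74, 7.17 and 7.21 in FVB 1 to 4. OVE26 arrays were tightly grouped just above FVB 3 and FVB 4, while FVB 1 and FVB 2 were lower. Its difference was 0.38 (SE 0.13, adjusted p = 0.208), while 1 probe set of the 3 gave -0.13. Slc25a20, the carnitine carrier of the inner membrane, differed by 0.30 (SE 0.12, adjusted p = 0.289), and its other probe set by -0.03. Cpt2, the inner-membrane partner of Cpt1a, gave 7.87, 6.48, 7.91, 7.31 and 8.15 in OVE26 1 to 5 and 7.07, 7.37, 7.82 and 7.59 in FVB 1 to 4. OVE26 2 was lowest of all arrays and the groups overlapped, with a difference of 0.08 (-0.63 to 0.79, adjusted p = 0.947) or 0.35 without OVE26 2 (adjusted p = 0.472). With a covariate it ranged from -0.53 (adjusted p = 0.604) with the macrophage score to 1.06 (adjusted p = 0.496) with the distal score.

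The acyl-CoA dehydrogenases open each turn of the spiral and divide the substrates by chain length. Acadl, for long chains, read 8.07, 7.90, 8.36, 8.31 and 8.27 in OVE26 1 to 5 and 7.58, 7.84, 7.59 and 7.72 in FVB 1 to 4. The groups did not overlap, although OVE26 2 was only just above FVB 2. The difference was 0.50 or 1.41-fold (SE 0.12, adjusted p = 0.102), and 0.14 in the dimmer probe set. Acadm, for medium chains and mutated in the commonest inherited defect of the pathway, gave 9.13, 9.05, 8.90, 9.06 and 9.07 in OVE26 1 to 5 and 8.90, 8.74, 8.94 and 8.94 in FVB 1 to 4. Its groups overlapped through OVE26 3 and the difference was 0.16 (-0.05 to 0.38, adjusted p = 0.460). Acads, for short chains, differed by 0.31 (SE 0.12, adjusted p = 0.255) and Acadvl, for very long chains, by 0.28 (SE 0.13, adjusted p = 0.346), with 4 of 5 OVE26 arrays above every FVB array in each.

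Later steps of the spiral were uneven, from Acaa2 to Hadha. Acaa2, the mitochondrial thiolase that releases acetyl-CoA, read 8.65, 8.36, 8.59, 8.53 and 8.81 in OVE26 1 to 5 and 7.27, 8.17, 7.66 and 7.78 in FVB 1 to 4. All OVE26 arrays were above all FVB arrays, FVB 2 was the highest of its group and FVB 1 the lowest of all. The mean was 8.59 ± 0.16 (SD, n = 5) against 7.72 ± 0.37 (SD, n = 4), a 1.83-fold difference (log2 0.87, SE 0.17, adjusted p = 0.0570), and its 3 probe sets gave 0.87, 0.77 and 0.84. Of 9 fits with 1 array left out it passed only in the fit without FVB 2 (1.02, adjusted p = 0.0154). The highest adjusted p of these fits was 0.163. The trifunctional protein acts on long chains, with subunits made from Hadha and Hadhb. Hadha was at 10.02, 9.68, 9.73, 9.67 and 9.94 in OVE26 1 to 5 and 9.78, 9.95, 9.88 and 9.60 in FVB 1 to 4, with wholly overlapping groups and a difference of 0.01 (-0.26 to 0.27, adjusted p = 0.989). Hadhb differed by 0.20 (SE 0.09, adjusted p = 0.346), and although its groups did not overlap, 1 of its 3 probe sets ran the other way (-0.25). Hadh, the dehydrogenase of shorter chains, differed by 0.36 (SE 0.15, adjusted p = 0.306), and by 0.59 in another probe set. Echs1, the short-chain hydratase, differed by 0.04 (SE 0.16, adjusted p = 0.948).

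The electron transfer flavoproteins take electrons from the dehydrogenases, and 0 of their 3 genes passed. Etfb differed by 0.29 (SE 0.14, adjusted p = 0.358), Etfa by 0.12 (SE 0.09, adjusted p = 0.616) and Etfdh, the enzyme that hands electrons to ubiquinone, by 0.11 (SE 0.10, adjusted p = 0.672). Unsaturated chains need isomerases and a reductase. Of these Eci2 differed by 0.41 (SE 0.17, adjusted p = 0.290), Eci1 by 0.08 (SE 0.09, adjusted p = 0.742) and Decr1 by 0.15 (SE 0.12, adjusted p = 0.625), and the other Decr1 probe set by -0.37. All 6 genes had overlapping groups.

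**Figure D2:**
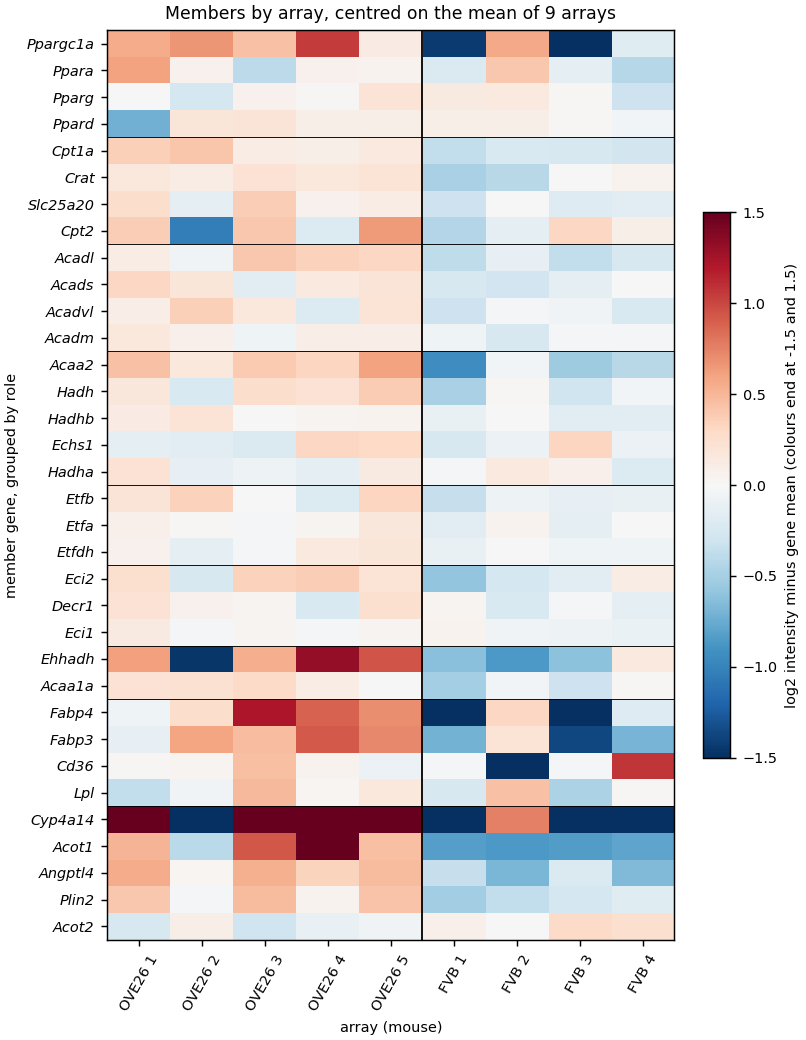
Log2 intensity of each member minus its mean over 9 arrays, by role (rows) and array (columns); colours end at -1.5 and 1.5. Ehhadh, Cyp4a14 and Cpt2 are low in OVE26 2 against the other OVE26 arrays, and Fabp4, Fabp3 and Ppargc1a are low in FVB 1 and FVB 3.

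Of 4 uptake and binding genes 0 passed, and Fabp3 and Fabp4 had the largest differences. Fabp3, the heart-type fatty acid binding protein, read 7.71, 8.42, 8.29, 8.74 and 8.55 in OVE26 1 to 5 and 7.12, 8.03, 6.46 and 7.13 in FVB 1 to 4. FVB 2 lay among the OVE26 arrays and the other FVB arrays were below them. The means were 8.34 ± 0.39 (SD, n = 5) and 7.19 ± 0.64 (SD, n = 4), a 2.23-fold difference (log2 1.16, SE 0.30, adjusted p = 0.114), or 1.44 without FVB 2 (adjusted p = 0.0242). Of 9 fits with 1 array left out only that without FVB 2 passed, and the highest adjusted p was 0.274. The difference was 0.45 (adjusted p = 0.774) with the distal score, which did not overlap between groups, and 0.90 (adjusted p = 0.402) with the macrophage score. The dimmer probe set of Fabp3 gave 0.13. Fabp4, the binding protein of fat cells, macrophages and capillary endothelium, was at 10.10, 10.43, 11.37, 11.05 and 10.86 in OVE26 1 to 5 and 8.56, 10.48, 8.66 and 9.97 in FVB 1 to 4. FVB 1 and FVB 3 were low, FVB 2 lay among the OVE26 arrays and FVB 4 just below them. The difference was 1.34 (SE 0.42, adjusted p = 0.171), from 0.65 to 1.599 over its 4 probe sets.

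Fabp4 is a gene of other cell types, whose markers were read beside it. Summed endothelial markers, of which 14 of 14 were above the reference on every array, were 3691, 4483, 7517, 4808 and 5955 in OVE26 1 to 5 and 4949, 8649, 4250 and 7299 in FVB 1 to 4. FVB 2 and FVB 4 were high for those markers as for Fabp4, and the ranges of the groups overlapped. Macrophage markers, 10 of 14 above the reference on every array, summed to 869, 621, 1747, 1072 and 1167 in OVE26 1 to 5 and 1046, 923, 771 and 991 in FVB 1 to 4. Of the 14, only 1 (Itgam) was below the reference on all 9 arrays, and 12 had differences above 0. In the covariate fits Fabp4 differed by 0.52 (adjusted p = 0.703) given the macrophage score and by 0.69 (adjusted p = 0.778) given the distal score. Of 4 adipocyte markers measured, 0 were above the reference on every array, and Adipoq and Lep were below it on all 9. Summed adipocyte intensity was 29 to 36 in OVE26 and 32 to 35 in FVB arrays.

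Cd36 and Lpl did not pass the test. Cd36, the fatty acid translocase, read 7.34, 7.36, 7.77, 7.37 and 7.23 in OVE26 1 to 5 and 7.30, 5.82, 7.29 and 8.39 in FVB 1 to 4. The OVE26 arrays were close together while FVB 2 was the lowest and FVB 4 the highest of all. Its difference was 0.22 (-0.69 to 1.12, adjusted p = 0.869), and it was -0.24 without FVB 2. Its other probe sets gave 0.03 and -0.16. Lpl, the lipase that frees fatty acids from lipoproteins, was at 9.78, 10.10, 10.63, 10.18 and 10.31 in OVE26 1 to 5 and 9.91, 10.58, 9.67 and 10.17 in FVB 1 to 4. The groups overlapped, and the difference was 0.12 (-0.35 to 0.59, adjusted p = 0.860).

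Angptl4, a secreted inhibitor of lipoprotein lipase and a strongly PPAR-induced gene, rose in OVE26 arrays. Its values were 6.07, 5.55, 6.05, 5.86 and 5.995 in OVE26 1 to 5 and 5.18, 4.83, 5.30 and 4.85 in FVB 1 to 4. Every OVE26 array was above every FVB array, with OVE26 2 the lowest of its group. The mean rose from 5.04 ± 0.23 (SD, n = 4) to 5.90 ± 0.22 (SD, n = 5), a 1.82-fold change (log2 0.86, SE 0.15, 95% interval 0.53 to 1.20, limma adjusted p = 0.0403). The dimmer probe set differed by 0.56. Leaving out each array in turn kept it between 0.79 and 0.95, and 2 of 9 such fits passed, the one lacking OVE26 2 at an adjusted p of 0.0234 and the one lacking FVB 2 at 0.0451. The adjusted p was highest, 0.143, in the fit lacking FVB 4. Covariate scores gave adjusted p-values of 0.0583 for sex, 0.198 for distal and 0.226 for macrophage markers, with differences of 0.92, 1.34 and 0.72. It also missed the threshold with median centring (0.0567), quantile normalization (0.0602) and averaged probe sets (0.0802), as adjusted p-values.

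Plin2, which coats lipid droplets and increases when lipid is stored, read 8.54, 8.11, 8.61, 8.19 and 8.56 in OVE26 1 to 5 and 7.62, 7.77, 7.87 and 7.96 in FVB 1 to 4. The groups did not overlap, and OVE26 2 and OVE26 4 were nearest to FVB. The difference was 0.60 or 1.52-fold (SE 0.14, adjusted p = 0.0871), and it passed with the proximal tubule score as a covariate (0.62, adjusted p = 0.0488). It was 0.40 (adjusted p = 0.384) with the macrophage score, 0.84 (adjusted p = 0.391) with the distal score and 0.60 (adjusted p = 0.155) with the sex score. Together with Angptl4, Acot1, Cpt1a, Acaa2 and Acadl it belonged to the 6 members with the smallest p, all without overlap between the groups.

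**Figure D3:**
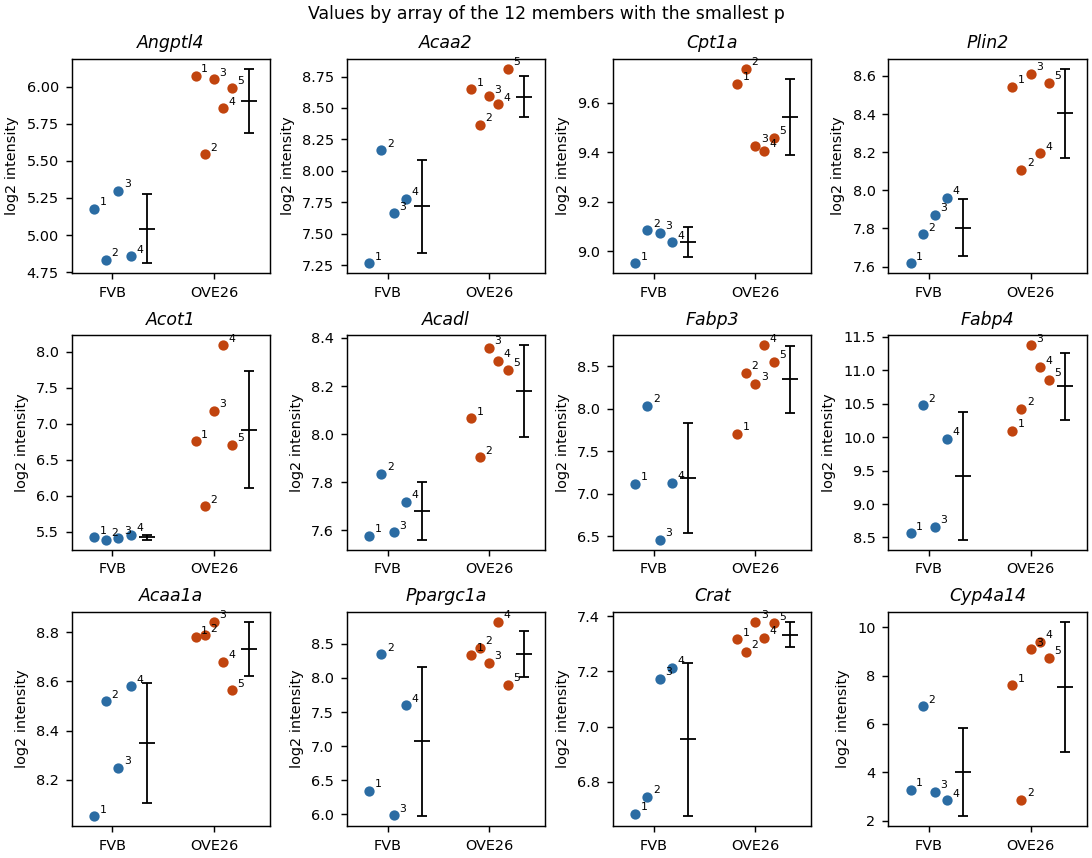
Log2 intensity by array (numbers are the mouse numbers) of the 12 members with the smallest p, in FVB (blue) and OVE26 (orange) mice; bars are mean ± SD. The 6 with the smallest p and Crat have no overlap between groups, while FVB 2 lies among the OVE26 arrays for Fabp3, Fabp4 and Ppargc1a and OVE26 2 among the FVB arrays for Cyp4a14.

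The acyl-CoA thioesterases free fatty acids from CoA, and the pair in the list had differences of opposite sign. Acot1, the cytosolic form and a PPARalpha target, read 6.76, 5.85, 7.18, 8.09 and 6.70 in OVE26 1 to 5 and 5.42, 5.39, 5.41 and 5.46 in FVB 1 to 4. FVB arrays lay close together, all OVE26 arrays were above them with OVE26 2 nearest, and OVE26 4 was highest. The means were 6.92 ± 0.81 (SD, n = 5) and 5.42 ± 0.03 (SD, n = 4), a 2.82-fold difference (log2 1.50, SE 0.36, adjusted p = 0.0930), or 1.76 without OVE26 2 (adjusted p = 0.0351). Of 9 fits with 1 array left out only that without OVE26 2 passed, and the highest adjusted p was 0.243. The difference was 0.64 (adjusted p = 0.499) with the macrophage score and 2.27 (adjusted p = 0.335) with the distal score. Acot2, the mitochondrial form, was at 11.49, 11.81, 11.42, 11.61 and 11.67 in OVE26 1 to 5 and 11.80, 11.73, 12.01 and 11.97 in FVB 1 to 4. It was lower in 4 of 5 OVE26 arrays than in every FVB array, a difference of -0.28 (SE 0.11, adjusted p = 0.295). The log2 difference between Acot1 and Acot2 within an array moved by 1.77 between groups, a description of a pair chosen after its values were seen, and neither gene passed alone. These thioesterases are close copies in neighbouring genes, so their probe sets can share signal, and the pair is uncertain to that extent; a second Acot2 probe set gave -0.43.

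Cyp4a14 and Ehhadh, PPARalpha targets of the proximal tubule, varied widely between mice of 1 group. Cyp4a14, a fatty acid omega-hydroxylase, read 7.60, 2.87, 9.09, 9.40 and 8.72 in OVE26 1 to 5 and 3.27, 6.73, 3.19 and 2.85 in FVB 1 to 4. OVE26 1, 3, 4 and 5 were high, OVE26 2 and FVB 1, 3 and 4 were below the dim-signal reference, and FVB 2 was in between. The means were 7.54 ± 2.70 (SD, n = 5) and 4.01 ± 1.82 (SD, n = 4), a difference of 3.53 with an interval of 0.56 to 6.50 (adjusted p = 0.246). Without OVE26 2 it was 4.69 (adjusted p = 0.0472), against a group with 3 of 4 arrays below the dim-signal reference. Of 9 fits with 1 array left out only this one passed, and the highest adjusted p was 0.467. Among the 5 arrays with low Xist, OVE26 1 and 4 were high and FVB 1, 3 and 4 were below the reference. The difference was 0.02 (adjusted p = 0.995) with the macrophage score and 5.62 (adjusted p = 0.504) given the distal score. OVE26 2 was the only OVE26 array within the FVB range of the macrophage score, so that fit separates score and group poorly.

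Ehhadh, the peroxisomal bifunctional enzyme, gave 7.25, 5.18, 7.19, 7.95 and 7.58 in OVE26 1 to 5 and 6.01, 5.78, 6.03 and 6.78 in FVB 1 to 4. OVE26 2 was the lowest of all arrays and the other OVE26 arrays were above every FVB array. The difference was 0.88 (-0.22 to 1.98, adjusted p = 0.445), or 1.34 without OVE26 2 (adjusted p = 0.0509). OVE26 2, the lowest OVE26 array for Cyp4a14 and Ehhadh, was the one with little proximal tubule signal. There Slc22a6, an organic anion transporter of that segment, read 3.40 against at least 7.22 elsewhere. Cyp4a14 was also below the dim-signal reference in FVB 1, 3 and 4, whose summed proximal tubule markers were 9133, 9974 and 14880. With the proximal tubule score as a covariate the differences were 3.76 for Cyp4a14 (adjusted p = 0.111) and 0.99 for Ehhadh (adjusted p = 0.0632). For Ehhadh the difference was -0.35 (adjusted p = 0.807) with the macrophage score and 2.40 (adjusted p = 0.377) with the distal score. Among OVE26 arrays only OVE26 2, the lowest for Ehhadh, lay within the FVB range of the macrophage score. The distal score did not overlap between groups. Both fits therefore separate score and group poorly. The proximal tubule sums were 9416, 1864, 10116, 10149 and 11849 in OVE26 1 to 5 and 9133, 6812, 9974 and 14880 in FVB 1 to 4. Among FVB arrays, FVB 2 had the lowest of these sums and the highest Cyp4a14. Its sum was lowered by 1 marker, Kap, at 5.82 there against 11.87 to 12.36 in the other FVB arrays. The rank of FVB 2 in these sums is therefore no measure of the other markers. Acaa1a, the peroxisomal thiolase, read 8.78, 8.79, 8.84, 8.68 and 8.56 in OVE26 1 to 5 and 8.05, 8.52, 8.25 and 8.58 in FVB 1 to 4. Only FVB 4 overlapped, with OVE26 5, and the difference was 0.38 (SE 0.13, adjusted p = 0.203), or 0.18 (adjusted p = 0.812) with the distal score.

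**Figure D4:**
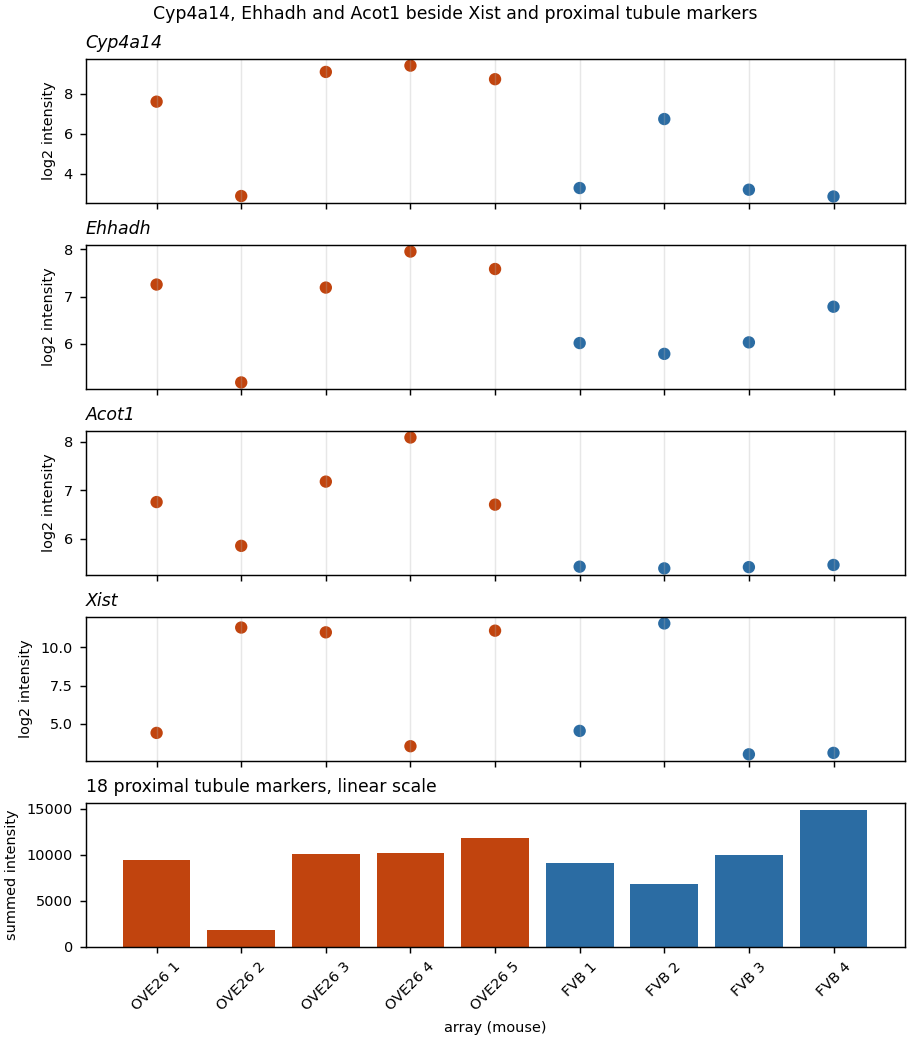
Log2 intensity of Cyp4a14, Ehhadh, Acot1 and Xist, and summed linear intensity of 18 proximal tubule markers, in each array (OVE26 orange, FVB blue). OVE26 2 has the lowest proximal tubule sum (1864) and the lowest Ehhadh, and FVB 2 is the only FVB array with high Xist and the FVB array with the highest Cyp4a14 (6.73).

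Other genes of the pathway were taken from 8 lists, with 94 of 108 measured. Of the 94, 1 rose and 0 fell at an adjusted p under 0.05, against 0.473% and 0.132% of all genes. Their median difference was 0.09 (0.01 over all genes), and 53 were above 0, against 52.6% of all genes. The gene that rose was Pdk4, the PPAR-induced kinase that inhibits the pyruvate dehydrogenase complex. It was at 8.90, 9.65, 8.69, 9.97 and 8.20 in OVE26 1 to 5 and 5.19, 6.16, 6.30 and 5.45 in FVB 1 to 4. It differed by 3.31 (SE 0.37, adjusted p = 0.00979) and passed whichever of the 9 arrays was left out. With the distal score as a covariate it was 2.90 (adjusted p = 0.335) and with the macrophage score 3.77 (adjusted p = 0.110), neither past the threshold, and among the low-Xist arrays 3.79 (adjusted p = 0.0836). The other 19 measured PPAR targets did not pass, with Aqp7, a glycerol channel, at 0.78 (adjusted p = 0.129). In the carnitine list of 4 genes, 0 passed and 4 were above 0. Acacb, which makes the malonyl-CoA that inhibits carnitine palmitoyltransferase, read 6.81, 7.46, 6.65, 6.89 and 6.73 in OVE26 1 to 5 and 6.09, 6.64, 5.76 and 5.40 in FVB 1 to 4, without overlap, and differed by 0.93 (SE 0.25, adjusted p = 0.119). Slc22a5, the carnitine importer, differed by 0.19 (SE 0.18, adjusted p = 0.676).

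Peroxisomal oxidation had 19 genes measured, of which 0 passed and 12 were above 0 (52.6% of all genes), with a median of 0.08. Acot4, a peroxisomal thioesterase, differed by 0.92 (SE 0.22, adjusted p = 0.0906) and Pex11a, which drives division of peroxisomes, by 0.56 (SE 0.15, adjusted p = 0.120), both without overlap. The further mitochondrial genes numbered 13, with 0 called, 6 above 0 and a median of -0.02. Acot13, a thioesterase, differed by 0.44 (SE 0.14, adjusted p = 0.171) and Acad11, a dehydrogenase of long chains, by 0.66 (SE 0.27, adjusted p = 0.276). Ketone body genes, 2 measured with 0 called, gave -0.23 for Oxct1 and 0.33 for Bdh1 (adjusted p = 0.432 and 0.446).

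PPAR partners and coregulators had more differences below 0 than above, with 0 of 17 called and a median of -0.17. Of the 17, 6 were above 0, where the share over all genes was 52.6%. Med1, the mediator subunit that nuclear receptors contact, read 9.47, 9.86, 9.63, 9.46 and 9.73 in OVE26 1 to 5 and 9.94, 9.88, 10.03 and 9.95 in FVB 1 to 4, with every OVE26 array below every FVB array, and differed by -0.32 (SE 0.11, adjusted p = 0.206). Ncoa2, a nuclear receptor coactivator, differed by -0.27 (SE 0.11, adjusted p = 0.286). Of 11 further genes of uptake and lipases 0 were called, and Gpihbp1, which anchors lipoprotein lipase to capillaries, differed by 0.87 (SE 0.28, adjusted p = 0.180) and Got2, an aminotransferase also known as a plasma membrane fatty acid binding protein, by 0.44 (SE 0.18, adjusted p = 0.286). Of 8 further lipid droplet genes 0 were called. Dgat1, which makes triglyceride, differed by -0.36 (SE 0.11, adjusted p = 0.161) with no overlap and Cideb by 0.58 (SE 0.24, adjusted p = 0.285). At an unadjusted p under 0.05 limma found 13 higher and 5 lower among the 94 genes, where the shares over all genes were 9.03% and 6.07%. Every OVE26 array lay above every FVB array for 10 of the 94 and below for 4, against 3.64% and 2.62% of all genes. Of the genes named, Pdk4, Aqp7, Acacb, Acot13, Acot4, Pex11a, Gpihbp1 and Cideb were among the 10, and Med1 and Dgat1 among the 4.

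**Figure D5:**
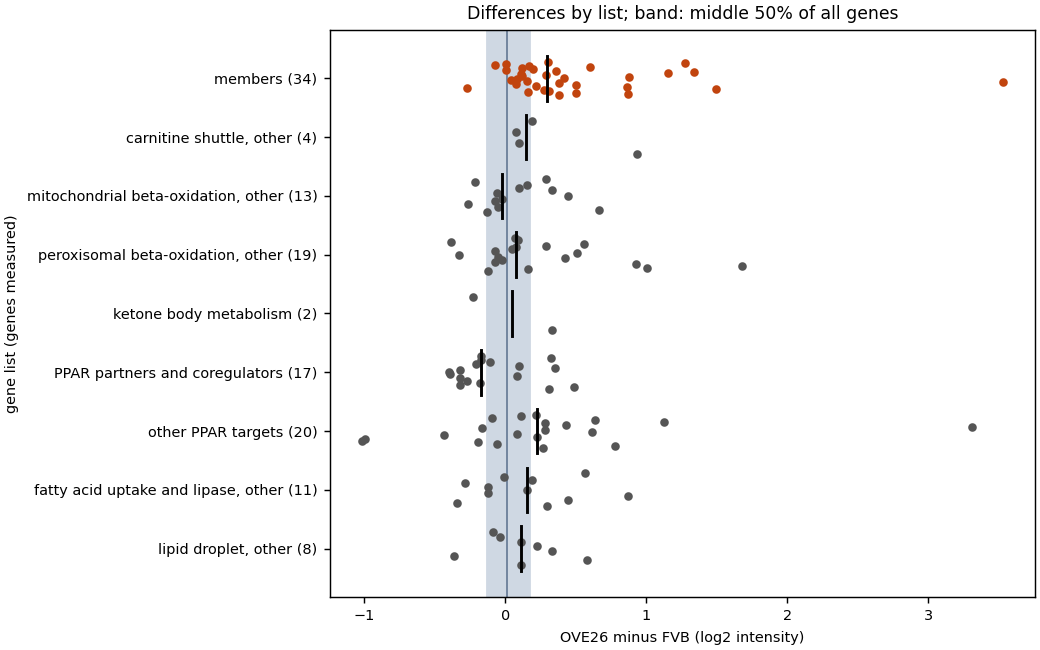
Differences (OVE26 minus FVB, log2 intensity) of single genes in the members and in 8 further lists of the pathway, with the number measured; black bars are medians, the grey band is the middle 50% of all genes and the grey line their median. The members' median is 0.29 and that of PPAR partners and coregulators -0.17.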

How the data were processed

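RNA of sorted podocytes from 5 OVE26 and 4 FVB mice was isolated with a PicoPure kit, amplified and biotin-labelled with a NuGEN kit and read on 1 array a mouse, per the labels' protocols. The deposited table gives an intensity for each probe set, taken as linear because the values span a scanner's range; per the submitters' processing notes the authors used RMA and Partek, and their settings are not given. Log2 was taken before any test. Of 45101 probe sets, 64 controls were left out. The platform annotation named 1 gene on 34945 probe sets, more than 1 on 932 and no gene on 9160, and 34741 of the first kind matched the reference table by gene identifier. The brightest probe set by mean over all 9 arrays stood for each of 18193 genes, with no filter on dim genes. RMA adds a background model and quantile scaling, which compresses differences near the floor.

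Groups were compared with limma 3.58.1 under R 4.3.3 (a linear model with group alone, lmFit then eBayes, 2-sided, prior degrees of freedom 2.94), Benjamini-Hochberg over all 18193 genes, threshold 0.05; the fit was tested on simulated data. Precision is limited by the number of arrays, with a median standard error of 0.16. No 2 arrays shared more than 4.08% of their values. The labels name separate mice, so p-values measure the spread between mice, sorts and amplifications together. Scores are means of centred log2 values of a marker list, and the sex score is Xist minus the mean of 3 Y-linked genes. The members, lists and tests were chosen with earlier results of these data known. Values by array are given for members past the threshold, the 12 with the smallest p and a set of receptors and enzymes named in the rule; from each further list, genes past the threshold and otherwise at most the 2 with the smallest p are named. Slc22a6, Xist and the values by array of Acot2, Ehhadh, Acacb and Med1 were added after they were seen. The search allowing 2 mismatches was added after the promoters were seen. Alternatives were a filter on genes under the 40th percentile, probe set averaging, all probe sets singly, a floor, quantile normalization, median and ribosomal centring (46 genes), trend with robust variance, array weights, a replicate block, 4 covariate scores, thresholds of 0.01 and 0.1 and each array left out. Added later were the arrays with low Xist only and leaving out both arrays numbered 2.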

Additional observations from a re-analysis of the deposited data

Results flagged for a closer look

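Single arrays lay far from the rest of their group in 10 of 82 group-wise checks of members and marker scores, where chance gives about 1 in 20. OVE26 2 was low for Cyp4a14 (2.87), Ehhadh (5.18) and Eci2 (7.85), low for the proximal tubule score (-2.12) and high for the distal marker score (1.70). FVB 2 was high for Cyp4a14 (6.73) and low for Acadm (8.74). OVE26 1 was low for Ppard (4.76), OVE26 3 high for Cd36 (7.77), and FVB 1 low for Etfb (10.43). All values are log2 intensities, and the scores are centred on 9 arrays.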

How the results depend on the processing

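The count of members called higher was 1 as reported. It was 2 without dim genes, with the floor or with the proximal tubule score, 3 with trend and robust variance, 6 with array weights and 5 at a threshold of 0.1. It was 0 with quantile normalization, probe sets averaged, all probe sets singly, median or ribosomal centring, the distal, macrophage or sex score, or a threshold of 0.01; in the limma fits that gave 0, from 7 to 17 members were higher at an unadjusted p under 0.05. Of the alternatives added after seeing the data, the low-Xist arrays gave 0 members (15 at an unadjusted p under 0.05) and 7 higher and 3 lower genes, and leaving out both arrays numbered 2 gave 6 members and 322 higher and 82 lower genes. With 1 array left out, 0 to 4 members, 8 to 285 higher and 0 to 82 lower genes were called by limma, the extremes of the gene counts being without FVB 3 and FVB 2; without FVB 3, 2155 genes had an unadjusted p under 0.05. Members called then were Acot1, Angptl4 and Cyp4a14 (without OVE26 2) or Acaa2, Angptl4, Fabp3 and Ppargc1a (without FVB 2), and 0 without any other array.

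Over all genes, 86 were higher and 24 lower as reported, 78.2% of calls being higher. Calls were 67 higher and 52 lower with median centring (56.3%), 57 and 46 with ribosomal centring (55.3%), 284 and 112 with array weights, 33 and 8 with the sex score, 0 and 1 with the macrophage score, 0 and 0 with the distal score (1643 at an unadjusted p under 0.05), 14 and 1 at a threshold of 0.01 and 267 and 108 at 0.1. Higher calls numbered 128 of 10916 genes without dim genes. Of 18193 genes they numbered 76 with the floor, 115 with the proximal tubule score and 128 with trend and robust variance. Lower calls numbered 38 without dim genes, 15 with all probe sets singly and 51 with trend and robust variance. The members' median moved to 0.20 and 0.17 under median and ribosomal centring, past the spread between arrays of 0.08, and ranged from 0.25 to 0.34 with 1 array left out. With the replicate block (numbers 1 to 4, OVE26 5 dropped) 19 genes were higher and 0 lower and 0 members were called (11 higher at an unadjusted p under 0.05). Same-numbered arrays correlated at 0.13, 0.04, -0.21 and 0.01 in their deviations, which showed no sign of pairing by number. These values were not set against other pairs of arrays, so they cannot exclude pairing. Up to 8 of 34 members, none of them called, changed sign in a fit (ribosomal centring), and 46 member values moved past their spread, 32 of them with the distal or macrophage score. The cause was not tested.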
